A study of Mus musculus with 12 samples.

Results

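The 8 genes described here encode transcription factors that hold the differentiated state of the kidney tubule, namely Hnf4a, Esrra, Esrrg, Ppara, Nr1h4, Pax8, Pax2 and Tfcp2l1. They were chosen by name, and each name matched 1 gene of the count table, so that 8 of 57490 genes are described. RNA with a polyA tail was sequenced from the kidneys of 12 male mice aged 13 weeks, 4 in each of 3 groups, with 1 mouse behind each library. The Ctrl mice were db/m mice of the BKS background that were given purified water. Their labels call them wild-type, whereas the notes on housing call them heterozygous for the db allele. The Model mice were db/db mice, BKS.Cg-Dock7m +/+ Leprdb/JNju, in which the leptin receptor is mutated and obesity and diabetes develop, and they too were given purified water, a treatment that the labels list as none. The YHY mice were db/db mice of the same strain that received a water extract of Yiqi Huoxue Yangyin Decoction at 6.24 g/mL, given by gavage each day for 4 weeks in a volume of 50 µL for every 10 g that a mouse weighed. The study treated mice at several doses per body weight, and which of these doses the sequenced mice received is not given in the sources used here. All mice had been obtained at 8 weeks of age, and db/db mice entered the study only with a high blood glucose. Model against Ctrl asked how the diabetic kidney differs from the non-diabetic kidney, YHY against Model asked what differs with the decoction, and YHY against Ctrl was added because both groups were measured.

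Hnf4a drives the late differentiation of the proximal tubule, the segment that takes back most of the filtered glucose, amino acids and phosphate, and it does so largely by binding the genes of transporters and of gluconeogenesis. The estrogen-related receptors Esrra and Esrrg switch on genes of the respiratory chain and the citric acid cycle, Ppara switches on fatty acid oxidation, and Nr1h4 encodes FXR, the receptor that senses bile acids. Pax2 and Pax8 are paired-box factors that found the kidney lineage in the embryo and remain in adult tubule and collecting duct, and Tfcp2l1 shapes the intercalated and principal cells of the collecting duct.

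The Ctrl libraries held 33276634, 29632718, 33236670 and 32677732 counts in mice 1 to 4, the Model libraries 29784346, 26356745, 26095074 and 24415658, and the YHY libraries 25310437, 25149764, 26187322 and 29698342. Transcripts of the mitochondrial genome took 18.6, 22.7, 18.4 and 18.5% of these counts in Ctrl, 41.2, 58.9, 55.3 and 53.4% in Model and 53.8, 64.6, 54.6 and 54.2% in YHY, with 95% Wilson intervals at most 0.0396 points wide. Levels are given as FPKM, counts divided by gene length and by the size of the library after TMM scaling, and differences as log2 fold changes from 1 fit of all 12 mice. A gene was called at an adjusted P under 0.05 over the 17431 genes tested, which include all 8 members. How the libraries were scaled mattered for the differences. The median log2 fold change of all genes was 0.04 in Model against Ctrl, 0.02 in YHY against Model and 0.10 in YHY against Ctrl with TMM. It was −0.39, 0.03 and −0.33 with library size alone, and 0.14, 0.04 and 0.22 with upper-quartile scaling. Of the called genes, 51.5% were higher in Model than in Ctrl with TMM and 21.4% with library size alone. These shares were 42.5 and 41.7% for YHY against Model and 51.9 and 28.4% for YHY against Ctrl. A log2 fold change called relative below is that of the gene less this median under the same scaling. A change of scaling moves each gene and this median by nearly the same amount. Relative values therefore agree between scalings by construction, and that agreement is no sign that a call is robust to scaling. The labels name the whole kidney as the tissue, whereas the design text names the cortex. Markers of the proximal tubule, the loop of Henle, the distal tubule and the collecting duct were detected, and of the 11 marker lists none held a marker at 0 counts in every mouse. Slc14a2, a urea transporter gene that is in the loop of Henle list, was present in all 12 mice at 2.47 to 33.01 FPKM. Its level does not settle which parts of the kidney were taken.

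Among the 8 factors, Hnf4a had the highest level in Ctrl kidneys, with a mean FPKM of 89.7 ± 4.17 (SD, n = 4). Nr1h4 at 31.4 ± 17.7 and Esrra at 30.3 ± 2.77 followed, and their mice overlapped. Tfcp2l1 at 14.4 ± 2.196 and Pax8 at 9.98 ± 1.31 overlapped as well, whereas Esrrg at 6.65 ± 0.297, Pax2 at 3.10 ± 1.36 and Ppara at 0.884 ± 0.196 each lay below every mouse of the factor before it. In Model kidneys Nr1h4 had a mean of 78.4 ± 10.8 FPKM and overlapped Hnf4a at 93.2 ± 12.2, while Pax8 at 14.3 ± 1.72 overlapped Tfcp2l1 at 14.4 ± 1.72. In YHY kidneys the mean of Nr1h4, 64.5 ± 18.8 FPKM, was above that of Hnf4a, 48.5 ± 16.8, although the ranges of the mice overlapped. Esrra at 21.9 ± 2.73, Tfcp2l1 at 18.7 ± 2.91 and Pax8 at 18.0 ± 1.47 could not be told apart there by their ranges, nor could Pax2 at 5.68 ± 3.50 and Esrrg at 3.44 ± 0.633, and Ppara at 1.77 ± 0.649 was again the lowest. The highest of the 12 mice stood 1.86 times above the lowest for Esrra and 7.62 times for Pax2, the least and the most variable of the 8.

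**Figure D1:**
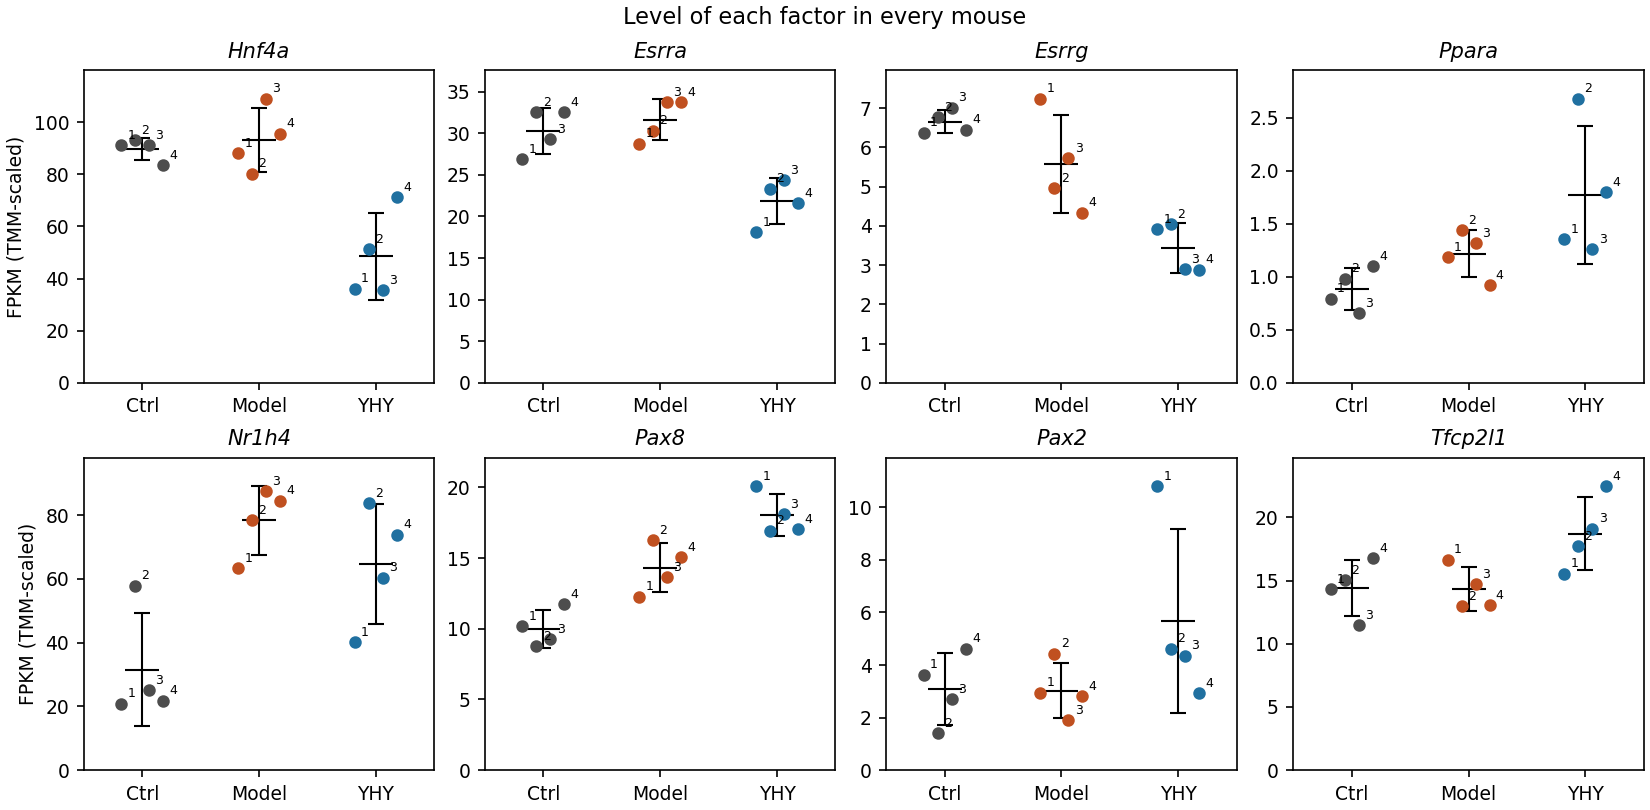
FPKM of each of the 8 factors (vertical axes from 0, TMM-scaled) in every mouse of Ctrl, Model and YHY; points are mice with their numbers, the long line is the mean and the bars are ± 1 SD of 4 mice. Hnf4a, Esrra and Esrrg lie lower in all 4 YHY mice than in any Ctrl or Model mouse, Pax8 lies higher in YHY than in Model and in Model than in Ctrl, and for Nr1h4 the mouse Ctrl 2 at 57.9 stands far above the other Ctrl mice.

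In Model against Ctrl, 2 of the 8 members were called, Nr1h4 and Pax8, both higher, where 38.0% of all genes tested were called (3412 higher and 3219 lower). In YHY against Model, 3 were called, Hnf4a, Esrra and Esrrg, all lower, beside 13.3% of all genes (982 higher and 1329 lower). In YHY against Ctrl, 6 were called, with Ppara, Nr1h4 and Pax8 higher and Hnf4a, Esrra and Esrrg lower, beside 50.3% of all genes (4547 higher and 4215 lower), a share of genes so large that 6 of 8 is not set apart from it. The study set limits of a fold change over 1.2 and a P under 0.05. With that P taken here without adjustment, 2 members passed in Model against Ctrl beside 46.9% of all genes. There were 6 in YHY against Model (3 in each direction) beside 28.6%, and all 8 in YHY against Ctrl (5 higher and 3 lower) beside 56.0%. The mice of the groups did not overlap for 2 members in Model against Ctrl beside 40.2% of all genes, for 4 in YHY against Model (1 higher and 3 lower) beside 16.1%, and for 5 in YHY against Ctrl (2 higher and 3 lower) beside 44.6%. The median log2 fold change of the members was 0.06, 0.03 and 0.62 in the 3 comparisons, beside 0.04, 0.02 and 0.10 over all genes. Each group stands in 2 of these comparisons, so they are not independent of each other.

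Some of these counts rested on the scaling or on a single mouse. With library size alone, Model against Ctrl held Nr1h4 higher and Esrrg lower, YHY against Model held Hnf4a and no other member, and YHY against Ctrl held Hnf4a, Esrra and Esrrg, lower, and none higher. All 8 members were called in YHY against Ctrl with upper-quartile scaling, with at least 10 counts in every mouse and by DESeq2. Pax8 was not called in Model against Ctrl without Ctrl 3, and Esrrg was called lower without Model 1. All genes called in YHY against Model numbered 2311, and 1146 without Model 3. Ctrl 2 and YHY 2 lay far from the other mice of their groups in mitochondrial share, and Model 1 had the lowest share of Model. Without these 3 mice, a choice made after seeing the data, 3 members were called in Model against Ctrl, 3 in YHY against Model and 6 in YHY against Ctrl, while all genes called numbered 7147, 1497 and 7965 of 17514 tested.

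**Figure D2:**
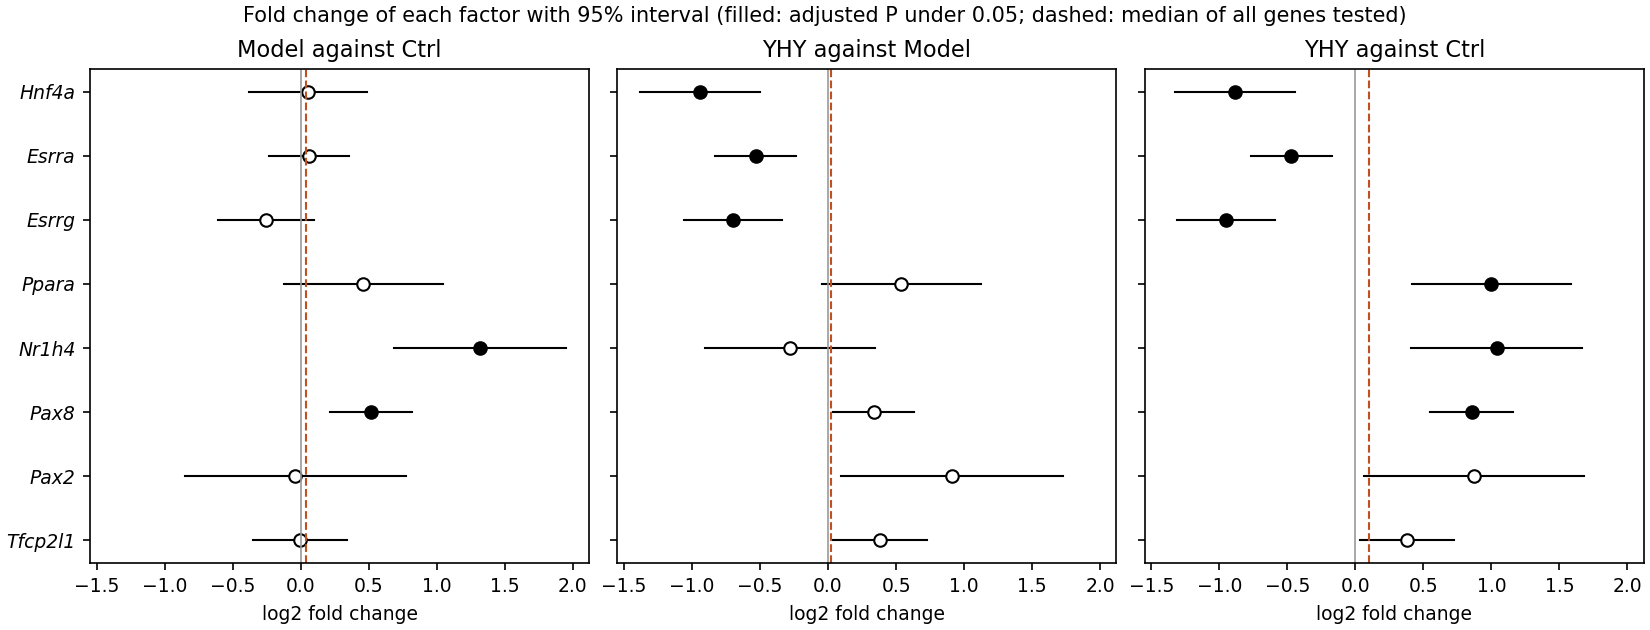
Log2 fold change of each factor (horizontal axis) in Model against Ctrl, YHY against Model and YHY against Ctrl, with TMM scaling; points are estimates, lines are 95% intervals, filled points passed an adjusted P under 0.05 and the dashed line is the median of all genes tested. Hnf4a, Esrra and Esrrg lie below 0 in both YHY panels, at −0.94, −0.53 and −0.70 against Model; with library size alone Hnf4a and Esrra move from just above 0 to −0.37 in Model against Ctrl and Tfcp2l1 moves to −0.06 in YHY against Ctrl, while with upper-quartile scaling Pax2 and Tfcp2l1 move to 0.07 and 0.10 in Model against Ctrl.

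Hnf4a (ENSMUSG00000017950, chromosome 2, 163348728 to 163414830 on the plus strand in the coordinates of the count table) was lower in kidneys of YHY mice than in those of either other group. Its FPKM was 91.2, 93.0, 91.1 and 83.6 in Ctrl, 88.2, 80.2, 109 and 95.6 in Model and 36.2, 51.3, 35.5 and 71.1 in YHY. All 4 YHY mice lay below all 8 others, YHY 4 came nearest to them, and Ctrl and Model overlapped. Hnf4a fell by 0.94 on the log2 scale in YHY against Model (SE 0.21, n = 4 mice per group, adjusted P = 0.00900), a level of 52.0% of that in Model, and by 0.89 in YHY against Ctrl (SE 0.21, adjusted P = 0.00210), where the value was −1.35 with library size alone. In Model against Ctrl its log2 fold change was 0.06 (SE 0.21, adjusted P = 0.856), and the 95% interval ran from −0.38 to 0.49. Relative to all genes this last difference was 0.02 with TMM and 0.02 with library size alone, although the value itself was −0.37 with library size alone. In whole tissue, fewer cells of a type and less RNA per cell cannot be told apart, and this holds for every factor below. The gene Hnf4aos lies on the opposite strand within the span of Hnf4a, and its counts over the 12 mice came to 1.66% of those of Hnf4a.

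Both start regions that RefSeq gives for Hnf4a are printed because Hnf4a had the lowest adjusted P of the members called in YHY against Model. Each window holds 250 bases before the start and 50 after it, 5′ to 3′ on the strand of the gene, in the mouse build GRCm38.p6, which is not the build of the count table. The windows are chr2:163506607-163506906 on the plus strand, with 54.0% G and C, and chr2:163546905-163547204 on the plus strand, with 57.3%. Capitals mark 4 of the motifs searched on either strand: AGGTCA, to which nuclear receptors bind, GTTAAT, a part of the HNF1 element, GGGCGG, the GC box, and TATAAA, the TATA box.
Hnf4a upstream window: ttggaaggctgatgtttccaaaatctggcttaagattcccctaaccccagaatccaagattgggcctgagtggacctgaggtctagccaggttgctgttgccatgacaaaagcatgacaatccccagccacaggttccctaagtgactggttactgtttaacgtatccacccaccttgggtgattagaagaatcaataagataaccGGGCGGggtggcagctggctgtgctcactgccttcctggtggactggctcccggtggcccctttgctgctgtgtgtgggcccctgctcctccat
Hnf4a downstream window: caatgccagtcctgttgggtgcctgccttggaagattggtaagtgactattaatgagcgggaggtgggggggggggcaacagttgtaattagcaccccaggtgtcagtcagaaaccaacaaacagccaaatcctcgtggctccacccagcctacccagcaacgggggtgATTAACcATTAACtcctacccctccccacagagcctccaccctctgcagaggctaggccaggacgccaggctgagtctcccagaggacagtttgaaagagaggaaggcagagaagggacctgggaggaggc
The upstream window holds 1 GC box, whose first base is at −44 with the start counted as 0. The downstream window holds GTTAAT on the opposite strand at −81 and −74. Such matches describe the letters and no more. In all, 25 motifs were searched on both strands of the 14 windows of the 8 members, and those named were picked after the matches had been seen. Of all 32851 RefSeq windows of this length, 16.3% hold AGGTCA (1 window of a member), 7.10% GTTAAT (3 windows), 35.7% GGGCGG (8 windows) and 13.6% TATAAA (2 windows). The long estrogen-related receptor element TCAAGGTCA is in 0.423% of them and the HNF4 element CAAAGTCCA in 0.475%, and neither is in a window of a member. The other motifs with fewer than 10 letters were AAGGTCA (4.72%), GGTCA (40.5%), AGTTCA (14.0%), GGTTCA (10.4%), AAAGTCCA (1.25%), CAAAG (53.9%), CTTTGA (16.003%), GCGTGAC (2.09%), CCAAT (37.4%), TGACGTCA (1.79%), CACGTG (7.15%) and TGATTT (14.0%). The longer motifs were a direct and an inverted repeat of AGGTCA with 1 base between (0.0396 and 0.00913%), the direct repeat with its ends trimmed (0.155%), the HNF1 palindrome (0.399%), the grainyhead repeats of CCGG (1.52%) and of CTGG (3.44%) and the NRF1 element (4.60%). Motifs overlap, since AGGTCA holds GGTCA and both lie within the estrogen-related receptor elements.

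Genes of the proximal tubule that depend on or bind HNF4A were lower in both db/db groups than in Ctrl, more often than higher. Of 29 tested, 12 fell and 5 rose in Model against Ctrl (median log2 fold change −0.43), 5 fell and 1 rose in YHY against Model (median −0.48), and 16 fell and 4 rose in YHY against Ctrl (median −0.90). Of all genes tested, 38.0, 13.3 and 50.3% were called in these comparisons, with medians of 0.04, 0.02 and 0.10, and the counts of every list below stand beside the same shares. Without YHY 4, the YHY mouse with the most Hnf4a, 13 of them fell in YHY against Model, and without Model 1, 3 fell. The 5 that fell there were 8 with library size alone, 10 by DESeq2 and 12 at an unadjusted P under 0.05. The 1 that rose became 0 without Ctrl 1, Ctrl 3, any 1 of the Model mice, YHY 2 or YHY 4, and with library size alone. Scaled that way, 2 rose in each comparison with Ctrl. The number that rose in Model against Ctrl was 3, 2 and 3 without Ctrl 3, Ctrl 4 and Model 1, and in YHY against Ctrl it was 2 without Ctrl 1, Ctrl 3, Ctrl 4 or YHY 4. Slc22a7, an organic anion transporter, was at 81.2 to 172 FPKM in Ctrl, at 0.748 to 2.28 in Model and at 1.18 to 3.68 in YHY, so that it fell by 6.46 on the log2 scale in Model against Ctrl (adjusted P = 5.55e-08). Keg1 fell by 2.05 and then by 0.86 in YHY against Model (adjusted P = 1.03e-05 and 0.0152). Pdzk1, a scaffold of brush border transporters, fell by 1.87 and by 0.83 (adjusted P = 1.06e-05 and 0.0135). Fbp1, the gluconeogenic fructose bisphosphatase, was at 284 to 343 FPKM in Ctrl, 107 to 152 in Model and 36.3 to 78.9 in YHY, and fell by 1.09 in YHY against Model (adjusted P = 0.00593).

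Markers of the proximal tubule were lower in both db/db groups than in Ctrl, more often than higher. Of 17 markers, 10 fell and 0 rose in Model against Ctrl, 1 fell and 1 rose in YHY against Model, and 13 fell and 1 rose in YHY against Ctrl. Their median log2 fold change was −0.73, −0.51 and −1.59 in these comparisons. Lrp2, Cubn, Slc34a1, Slc5a12 and Slc22a6 are both in this list and in that of HNF4A. At an unadjusted P under 0.05 and by DESeq2, 0 rose in Model against Ctrl as well. The 1 that fell in YHY against Model became 7 at an unadjusted P, 5 by DESeq2, 2 with library size alone, 2 without Ctrl 4 or YHY 1, 3 without YHY 2 and 7 without YHY 4. The 1 that rose there became 0 with library size alone and when any 1 mouse other than Ctrl 2, Model 4 or YHY 4 was left out, and the 1 that rose in YHY against Ctrl became 0 with library size alone, by DESeq2 and without Ctrl 1, Ctrl 3, Ctrl 4, Model 1 or YHY 4. Their summed FPKM was 66997, 86836, 70076 and 31538 in Ctrl, 12303, 7222, 10798 and 7634 in Model and 6078, 10129, 3767 and 9519 in YHY. Most of this sum was Kap, an androgen-dependent proximal tubule transcript, at 28710 to 82211 FPKM in Ctrl and 2484 to 9829 in the db/db mice, which fell by 3.06 on the log2 scale in Model against Ctrl (adjusted P = 5.09e-05). Kap was not called in YHY against Model, with a log2 fold change of −0.34 (adjusted P = 0.601). The part of the marker level in the level of Hnf4a was not tested.

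The gene whose pattern over the 12 mice was most like that of Hnf4a, among 12055 searched, was Adra2b (r = 0.963), an adrenergic receptor, followed by Cebpa (r = 0.962), another transcription factor. Such a correlation over 12 mice includes the differences between the groups. Cebpa was at 13.5, 12.0, 14.8 and 11.1 FPKM in Ctrl, 13.4, 13.2, 13.8 and 11.6 in Model and 4.50, 7.11, 5.55 and 10.2 in YHY. As for Hnf4a, YHY 4 was the highest of the YHY mice and still below all 8 others. Cebpa fell by 0.93 in YHY against Model (SE 0.20, adjusted P = 0.00934), and in Model against Ctrl its log2 fold change was 0.02 (adjusted P = 0.958).

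Esrra (ENSMUSG00000024955, chromosome 19, 6888345 to 6899208, minus strand) had FPKM values of 26.9, 32.6, 29.3 and 32.6 in Ctrl, 28.7, 30.3, 33.7 and 33.8 in Model and 18.1, 23.4, 24.3 and 21.6 in YHY. All 4 YHY mice were the lowest, and Ctrl and Model overlapped. Esrra fell by 0.53 in YHY against Model (SE 0.14, n = 4 mice per group, adjusted P = 0.0213) and by 0.47 in YHY against Ctrl (SE 0.14, adjusted P = 0.0106), where the value was −0.90 with library size alone. The first of these calls was lost without Model 3 (−0.50, adjusted P = 0.0719), Model 4 (−0.50, 0.0545) or YHY 1 (−0.46, 0.0610), with library size alone (−0.53, 0.0886) and in a fit of only the Model and YHY mice (adjusted P = 0.0743). In Model against Ctrl the log2 fold change was 0.06 (SE 0.14, adjusted P = 0.759). With library size alone that value was −0.37, and relative to all genes it was 0.02 under both scalings. Trmt112, on the opposite strand, overlaps the span of Esrra, and its counts came to 16.2% of those of Esrra. The use of strand in the counting is not given in the sources used here, so that reads of such overlapping genes may not be told apart. The RefSeq start window of Esrra, a member called in YHY against Model, is shown, whereas those of Esrrg, also called there, are not. The Esrra window is chr19:6921759-6922058 on the minus strand in GRCm38.p6, with 66.0% G and C and capitals as for Hnf4a.
Esrra window: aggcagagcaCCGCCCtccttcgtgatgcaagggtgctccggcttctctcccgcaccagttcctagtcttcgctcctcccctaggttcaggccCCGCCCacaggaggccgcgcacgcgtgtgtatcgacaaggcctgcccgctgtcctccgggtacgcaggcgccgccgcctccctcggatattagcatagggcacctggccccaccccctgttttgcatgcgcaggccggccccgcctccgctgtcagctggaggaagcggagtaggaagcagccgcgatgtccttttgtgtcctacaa
It holds the GC box on the opposite strand, at −240 and −157, and neither AGGTCA nor the longer receptor elements.

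Esrrg (ENSMUSG00000026610, chromosome 1, 187340988 to 187947082, plus strand) was at 6.37, 6.77, 7.01 and 6.45 FPKM in Ctrl, 7.24, 4.96, 5.72 and 4.34 in Model and 3.92, 4.04, 2.90 and 2.88 in YHY. All YHY mice were below all others, and within Model only Model 1 reached the level of Ctrl. Esrrg fell by 0.70 in YHY against Model (SE 0.17, n = 4 mice per group, adjusted P = 0.0147) and by 0.95 in YHY against Ctrl (SE 0.17, adjusted P = 0.000238). In Model against Ctrl the log2 fold change was −0.26 and was not called (SE 0.17, adjusted P = 0.244). It was called without Model 1 (−0.47, adjusted P = 0.0303) and with library size alone (−0.67, 0.0184), where it was −0.28 relative to all genes. In YHY against Model the call was lost with library size alone (−0.72, adjusted P = 0.0532), in a fit of those 2 groups (0.0592) and with 9 of the mice, Ctrl 1, 3 and 4, Model 2, 3 and 4 and YHY 1, 2 and 3 (−0.46, 0.0819). The ratio of Esrrg to Esrra within a mouse, on FPKM, passed no exact two-sided permutation test between groups. Its mean log2 value was −2.18 ± 0.137 (SD, n = 4) in Ctrl, −2.53 ± 0.402 in Model and −2.68 ± 0.387 in YHY. YHY differed from Ctrl by −0.49 (exact P = 0.0857, adjusted over 9 ratio tests 0.257), Model from Ctrl by −0.35 (exact P = 0.2) and YHY from Model by −0.15 (exact P = 0.6).

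Target genes of the estrogen-related receptors were mostly lower in db/db kidneys, with or without the decoction. Of 33 tested, 25 fell and 1 rose in Model against Ctrl (median log2 fold change −0.85), 6 fell and 0 rose in YHY against Model (median −0.33) and 28 fell and 1 rose in YHY against Ctrl (median −1.12). Their direction was the same with library size alone, with 28 lower and 1 higher, 1 lower and 0 higher, and 31 lower and 0 higher. At an unadjusted P under 0.05 and by DESeq2, 0 rose in YHY against Model as well, and 12 and 9 fell. Without Model 3, 3 fell in YHY against Model. The 1 that rose in YHY against Ctrl became 0 without any 1 of the Ctrl mice or YHY 2. Uqcrc2 and Cox5a, subunits of the respiratory chain, fell by 1.47 and 1.86 in Model against Ctrl (adjusted P = 1.54e-05 and 1.62e-05), and Acadm, which oxidizes medium-chain fatty acids, fell by 1.70 (adjusted P = 2.85e-06). None of these was called in YHY against Model. The targets with the smallest P between YHY and Model were Cox6a2, Mfn2 and Cycs. Cox6a2, the heart and muscle form of a cytochrome oxidase subunit, was at 1.80, 2.89, 1.55 and 0.804 FPKM in Ctrl, 7.91, 12.9, 8.60 and 7.10 in Model and 1.29, 1.14, 0.657 and 2.34 in YHY. It was thus higher in every Model mouse than in any other mouse, rising by 2.38 in Model against Ctrl (adjusted P = 0.000410) and falling in YHY against Model, with a log2 fold change of −2.74 (adjusted P = 0.00135). Cycs, encoding cytochrome c, fell by 0.76 in YHY against Model (adjusted P = 0.0134, 0.0552 with library size alone and 0.0737 without Ctrl 2, Model 1 and YHY 2). Mfn2, a mitofusin, fell by 0.53 (adjusted P = 0.0121, 0.114 with library size alone and 0.0542 in a fit of those 2 groups), and it was also among the genes most like Esrra over the mice (r = 0.927), after Gpat4 (r = 0.930), an enzyme of glycerolipid synthesis. For Esrrg the genes most alike were Tgm2, a transglutaminase (r = 0.9498), and Cfap36 (r = 0.941), which fell by 0.67 and 0.63 in YHY against Model (adjusted P = 0.00748 and 0.0172).

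Ppara (ENSMUSG00000022383, chromosome 15, 85619184 to 85687020, plus strand) was the least abundant of the factors, with 83 to 186 counts in a mouse. Its FPKM was 0.795, 0.984, 0.658 and 1.098 in Ctrl, 1.18, 1.44, 1.32 and 0.925 in Model and 1.35, 2.68, 1.26 and 1.80 in YHY. All YHY mice were above all Ctrl mice, and the Model mice overlapped both groups. Ppara rose by 1.00 in YHY against Ctrl (SE 0.28, n = 4 mice per group, adjusted P = 0.00668), a value that was 0.51 and not called with library size alone (adjusted P = 0.118). Relative to all genes it was 0.90 with TMM and 0.84 with library size alone. The log2 fold change was 0.46 in Model against Ctrl (SE 0.28, adjusted P = 0.202) and 0.54 in YHY against Model (SE 0.28, adjusted P = 0.211), and neither was called. The former was 0.29 without Ctrl 3 and 0.01 with library size alone, and the latter was 0.27 without YHY 2 (adjusted P = 0.557) and 0.27 without Ctrl 2, Model 1 and YHY 2 (0.603). The ratio of Hnf4a to Ppara within a mouse, FPKM over FPKM, does not depend on how libraries are scaled. It was 115, 94.5, 139 and 76.2 in Ctrl, 74.6, 55.7, 82.5 and 103 in Model and 26.8, 19.1, 28.1 and 39.6 in YHY, so that every YHY mouse was below every other mouse. The mean log2 ratio differed by −1.49 between YHY and Model and by −1.91 between YHY and Ctrl (exact two-sided permutation P = 0.0286 each, the smallest that 4 against 4 mice can give, and 0.129 adjusted over the 9 ratio tests), and by −0.42 between Model and Ctrl (exact P = 0.171). The genes most like Ppara over the 12 mice were Alg13, of protein glycosylation (r = 0.946), and Nfkb2, a subunit of NF-κB (r = 0.935).

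Target genes of PPAR alpha were lower in Model than in Ctrl more often than higher. Of 31 tested, 13 fell and 4 rose in Model against Ctrl (median log2 fold change −0.53), 0 fell and 4 rose in YHY against Model (median 0.26), and 10 fell and 8 rose in YHY against Ctrl (median −0.31). The 4 became 1 without Model 3, 2 without Ctrl 3, Model 1, Model 2, Model 4, YHY 2 or YHY 4, and 7 without YHY 1. Against the 0 that fell in YHY against Model by edgeR, 2 were lower at an unadjusted P under 0.05, and 1 was called lower by DESeq2, with library size alone, with upper-quartile scaling and without Ctrl 4 or YHY 2. Without YHY 4, 2 were called lower and 2 higher. In YHY against Ctrl, 18 fell and 7 rose with library size alone, and 9 fell and 10 rose with upper-quartile scaling. Pdk4, the kinase that shuts off pyruvate oxidation, was at 2.40, 5.68, 4.05 and 2.66 FPKM in Ctrl, 2.59, 3.19, 1.17 and 2.65 in Model and 7.98, 8.33, 21.7 and 19.4 in YHY. All YHY mice were above all other mice, with YHY 3 and YHY 4 the highest, and Pdk4 rose by 2.58 in YHY against Model (SE 0.38, adjusted P = 0.000884). Slc27a1, a fatty acid transporter, rose by 1.23 in Model against Ctrl (adjusted P = 5.77e-05) and by 0.68 in YHY against Model (adjusted P = 0.0144, and 0.64 with an adjusted P of 0.0535 without Model 3). Plin2, which coats lipid droplets, rose by 0.74 in YHY against Model with overlapping mice (adjusted P = 0.0443). That call was lost when any 1 mouse other than YHY 1 or YHY 3 was left out, with values from 0.47 without YHY 4 to 0.80 without Model 1, with library size alone (0.68, adjusted P = 0.0811), in a fit of those 2 groups (0.0647), with 9 mice (0.0964) and without Ctrl 2, Model 1 and YHY 2 (0.107). Cd36, another fatty acid transporter, was at 56.9 to 101 FPKM in Ctrl, 10.42 to 14.2 in Model and 4.36 to 10.39 in YHY, and fell by 2.85 in Model against Ctrl (adjusted P = 2.38e-06). In YHY against Model its log2 fold change was −0.76 and was not called (adjusted P = 0.0502), although all YHY mice were below all Model mice.

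Nr1h4 (ENSMUSG00000047638, chromosome 10, 89290096 to 89369447, minus strand) was higher in db/db kidneys. Its FPKM was 20.9, 57.9, 25.2 and 21.8 in Ctrl, 63.3, 78.3, 87.4 and 84.5 in Model and 40.2, 83.7, 60.4 and 73.9 in YHY. Ctrl 2 stood far above the other Ctrl mice and within the range of YHY, while all Model mice were above all Ctrl mice. Ctrl 2 was also the Ctrl mouse with the highest mitochondrial share, 22.7%, and the part of that in its Nr1h4 level was not tested. Nr1h4 rose by 1.32 in Model against Ctrl (SE 0.30, n = 4 mice per group, adjusted P = 0.00273), and by 1.79 without Ctrl 2. It rose by 1.04 in YHY against Ctrl (SE 0.30, adjusted P = 0.00849), and by 1.51 without Ctrl 2, but with library size alone that difference was 0.61 and not called (adjusted P = 0.0520). Relative to all genes it was 0.94 under both scalings, and 1.28 and 1.32 with TMM and library size alone in Model against Ctrl. The log2 fold change in YHY against Model was −0.28 (SE 0.29, adjusted P = 0.577). Set against Hnf4a in the same mouse, the order of the 2 genes by FPKM differed between the groups. The ratio of their FPKM was 0.229, 0.622, 0.276 and 0.261 in Ctrl, 0.717, 0.976, 0.802 and 0.884 in Model and 1.11, 1.63, 1.70 and 1.04 in YHY, so that Nr1h4 exceeded Hnf4a in 0 of 4, 0 of 4 and 4 of 4 mice. The order rests on the gene lengths, 2303 bases for Nr1h4 and 4828 for Hnf4a, and by raw counts Nr1h4 was lower in every mouse. In YHY against Model the log2 fold change was −0.94 for Hnf4a and −0.28, not called, for Nr1h4. This order was noticed in the values and was not tested. The start window of Nr1h4, shown because Nr1h4 had the largest log2 fold change of the members called in Model against Ctrl, is chr10:89506609-89506908 on the minus strand in GRCm38.p6 from RefSeq, with 45.7% G and C against a median of 52.7% over all windows and capitals as for Hnf4a.
Nr1h4 window: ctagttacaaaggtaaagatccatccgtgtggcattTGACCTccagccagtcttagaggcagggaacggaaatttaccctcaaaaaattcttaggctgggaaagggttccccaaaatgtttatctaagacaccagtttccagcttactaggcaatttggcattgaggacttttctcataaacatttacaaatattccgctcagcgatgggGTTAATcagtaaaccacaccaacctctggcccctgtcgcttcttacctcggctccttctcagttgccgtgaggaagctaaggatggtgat
It holds AGGTCA on the opposite strand at −214 and GTTAAT at −40.

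Target genes of FXR include several that carry bile acids. The list is not split into genes that FXR raises and genes that it lowers, so its counts show no direction of FXR action. Of 18 genes, 13 were tested, and 6 fell and 1 rose in Model against Ctrl (median log2 fold change −0.36), 3 fell and 0 rose in YHY against Model (median 0.03), and 4 fell and 0 rose in YHY against Ctrl (median −0.16). The 7, 3 and 4 of 13 called stand beside 38.0, 13.3 and 50.3% of all genes, from which so few genes are not set apart. At an unadjusted P under 0.05, 1 was higher in each YHY comparison, and DESeq2 called 1 higher in each, as did edgeR without YHY 4 in YHY against Model and without YHY 3 in YHY against Ctrl. Scaled by library size alone, 8 fell and 0 rose in each comparison with Ctrl, and with upper-quartile scaling 4 fell and 1 rose in each of them. Slc10a2, the apical bile acid transporter, was at 31.1, 19.9, 22.8 and 36.8 FPKM in Ctrl, 6.26, 5.15, 6.38 and 7.38 in Model and 1.52, 1.78, 2.60 and 2.55 in YHY. These 3 groups did not overlap, and Slc10a2 fell by 2.14 in Model against Ctrl (adjusted P = 7.22e-06) and by 1.57 in YHY against Model (adjusted P = 0.000589). Slc51a and Slc51b encode the subunits of the basolateral bile acid exporter, and they differed in direction in Model against Ctrl while both fell in YHY against Model. Slc51b was at 23.8, 35.8, 26.5 and 17.7 FPKM in Ctrl, 43.5, 48.3, 43.7 and 42.5 in Model and 25.5, 28.6, 18.3 and 24.9 in YHY, higher in every Model mouse than in any other, and it rose by 0.78 and then fell by 0.87 (adjusted P = 0.00460 and 0.00912). Slc51a was at 17.8, 19.8, 15.6 and 4.62 FPKM in Ctrl, 4.63, 3.44, 3.43 and 1.86 in Model and 0.740, 1.82, 0.489 and 1.94 in YHY. Ctrl 4 lay at the level of Model 1, and Slc51a fell by 2.11 in Model against Ctrl (adjusted P = 0.00145) and by 1.44 in YHY against Model (adjusted P = 0.0465). The latter call was kept only without Ctrl 4, Model 4, YHY 2 or YHY 4; without any other mouse it was lost, with values from −1.47 without Ctrl 3 to −1.17 without YHY 3, and it was also lost by DESeq2 (adjusted P = 0.0518), in a fit of those 2 groups (0.0534), with 9 mice (0.0651) and without Ctrl 2, Model 1 and YHY 2 (0.112). Insig2, which holds back sterol synthesis, fell by 0.92 in Model against Ctrl (adjusted P = 0.000293). The gene most like Nr1h4 over the mice was Maf (r = 0.966), a basic leucine zipper factor, in which Ctrl 2 at 28.6 FPKM was again above the other Ctrl mice at 10.2 to 13.8. Plekhm2, a lysosome adaptor, followed (r = 0.956).

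Pax8 (ENSMUSG00000026976, chromosome 2, 24310572 to 24365611, minus strand) stood at 10.2, 8.75, 9.26 and 11.7 FPKM in Ctrl, 12.3, 16.3, 13.7 and 15.0 in Model and 20.1, 16.9, 18.1 and 17.0 in YHY. No mouse of any group overlapped another group, with Ctrl the lowest and YHY the highest. Pax8 rose by 0.52 in Model against Ctrl (SE 0.14, n = 4 mice per group, adjusted P = 0.00917) and by 0.85 in YHY against Ctrl (SE 0.14, adjusted P = 0.000139). The first call was lost without Ctrl 3 (0.43, adjusted P = 0.0578). With library size alone the values were 0.06 and 0.43, not called (adjusted P = 0.822 and 0.0950). Relative to all genes they were 0.48 and 0.46 in Model against Ctrl and 0.75 and 0.75 in YHY against Ctrl, with TMM and library size alone. The log2 fold change in YHY against Model was 0.33 and was not called (SE 0.14, adjusted P = 0.132), although its mice did not overlap. The genes most like Pax8 were Ankrd17 (r = 0.973) and Hdac7, a histone deacetylase (r = 0.972), which rose by 1.16 in Model against Ctrl (adjusted P = 9.59e-05).

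Pax2 (ENSMUSG00000004231, chromosome 19, 44744484 to 44826310, plus strand) had the widest spread over the 12 mice of the 8 factors, with the highest 7.62 times above the lowest. Its FPKM was 3.64, 1.42, 2.72 and 4.63 in Ctrl, 2.95, 4.43, 1.92 and 2.81 in Model and 10.8, 4.62, 4.36 and 2.92 in YHY. YHY 1 was far above all other mice, Ctrl 2 was the lowest, and all 3 groups overlapped. The log2 fold change was 0.91 in YHY against Model (SE 0.38, n = 4 mice per group, adjusted P = 0.131) and 0.87 in YHY against Ctrl (SE 0.38, adjusted P = 0.0687), and neither was called. Without YHY 1 these values were 0.39 and 0.35 (adjusted P = 0.496 and 0.406), and the latter was 0.46 with library size alone. The difference from Ctrl was called without Ctrl 4 (1.08, adjusted P = 0.0423), without YHY 4 (1.08, 0.0233), with upper-quartile scaling (0.0394), with at least 10 counts in every mouse (0.0493), by DESeq2 (0.0486) and without a filter on low counts (0.00894). Without that filter Pax2 was also called in YHY against Model (adjusted P = 0.0176). In Model against Ctrl the value was −0.04 (SE 0.38, adjusted P = 0.948), and it changed sign without Ctrl 4 (0.17) or Model 3 (0.13). Within a mouse the log2 ratio of Pax2 to Pax8 FPKM was −1.81 ± 0.574 (SD, n = 4) in Ctrl, −2.30 ± 0.424 in Model and −1.84 ± 0.692 in YHY. It differed by −0.49 between Model and Ctrl (exact two-sided permutation P = 0.229), by 0.46 between YHY and Model (exact P = 0.314) and by −0.04 between YHY and Ctrl (exact P = 0.943).

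Genes tied to PAX2 and PAX8 showed no call between YHY and Model by edgeR with all mice. Of 22 genes 14 were tested, and 5 fell and 2 rose in Model against Ctrl (median log2 fold change −0.44), 0 fell and 0 rose in YHY against Model by edgeR (median 0.11), and 6 fell and 4 rose in YHY against Ctrl (median 0.02). The 5 became 3 without Model 2, Model 3 or Model 4, and with upper-quartile scaling the genes that fell and rose were 3 and 3 in Model against Ctrl and 4 and 4 in YHY against Ctrl. At an unadjusted P under 0.05 edgeR also gave 0 and 0 in YHY against Model, while DESeq2 called 1 higher and 0 lower, as did edgeR without Ctrl 1, Ctrl 2, Ctrl 3, YHY 1 or YHY 4. Scaled by library size alone, 2 rose in YHY against Ctrl. Gata3, a collecting duct and mesangial factor, rose by 1.19 in Model against Ctrl (adjusted P = 2.85e-05), and Ncam1, an adhesion molecule, rose by 2.02 (adjusted P = 0.000113). Aqp3, the basolateral water channel of principal cells, fell by 1.72 (adjusted P = 0.000389). Wnt4, a signal of tubule formation, was at 1.202, 0.565, 0.309 and 1.51 FPKM in Ctrl, 0.998, 0.681, 0.392 and 0.826 in Model and 5.68, 0.264, 1.07 and 0.268 in YHY. YHY 1 was the high mouse, as for Pax2, and the log2 fold change of Wnt4 in YHY against Model was 1.33 with YHY 1 (adjusted P = 0.270) and −0.43 without it. Slc14a2 was at 16.4, 2.47, 19.8 and 26.8 FPKM in Ctrl, 11.2, 7.57, 5.02 and 8.74 in Model and 15.8, 4.86, 33.01 and 9.78 in YHY. Ctrl 2 was again the lowest mouse, and YHY 3 the highest, and the log2 fold change in YHY against Model, 0.96, was not called (adjusted P = 0.278). It was 0.32 without YHY 3 (adjusted P = 0.761), and 1.48 and called without Ctrl 2, Model 1 and YHY 2 (adjusted P = 0.0367).

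Principal cells of the collecting duct, in which Pax2 is found, were followed by their markers. Of the 9 principal cell markers 8 were tested, and 3 fell and 1 rose in Model against Ctrl, 0 fell and 0 rose in YHY against Model and 3 fell and 2 rose in YHY against Ctrl. At an unadjusted P under 0.05, 3 were higher and 0 lower in YHY against Model, and DESeq2 called 2 higher and 0 lower. Without Model 1, YHY 2 and YHY 4 in turn, 1, 2 and 3 rose there. Scaled by library size alone, 5 fell in Model against Ctrl, and the 2 that rose in YHY against Ctrl became 1 with library size alone, by DESeq2 and without Ctrl 1, Ctrl 3, any 1 of the Model mice, YHY 2 or YHY 4. Their summed FPKM was 644, 421, 436 and 1037 in Ctrl, 374, 222, 270 and 272 in Model and 506, 201, 293 and 168 in YHY. Ctrl 4 and YHY 1, the mice with the most Pax2 of their groups, had the highest sums of their groups, whereas Model 2, the Model mouse with the most Pax2, had the lowest sum of Model, and the part of the marker level in the level of Pax2 was not tested. Aqp2, the apical water channel and the most abundant of these markers over the 12 mice, fell by 1.18 in Model against Ctrl with overlapping mice (adjusted P = 0.0354). The genes most like Pax2 over the mice were Maff, a small basic leucine zipper factor (r = 0.910), and Fbxo2 (r = 0.907). Fbxo2, a ubiquitin ligase subunit that binds sugar chains, was at 8.92 FPKM in YHY 1 and at 0.170 to 2.53 in the other 11 mice.

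**Figure D3:**
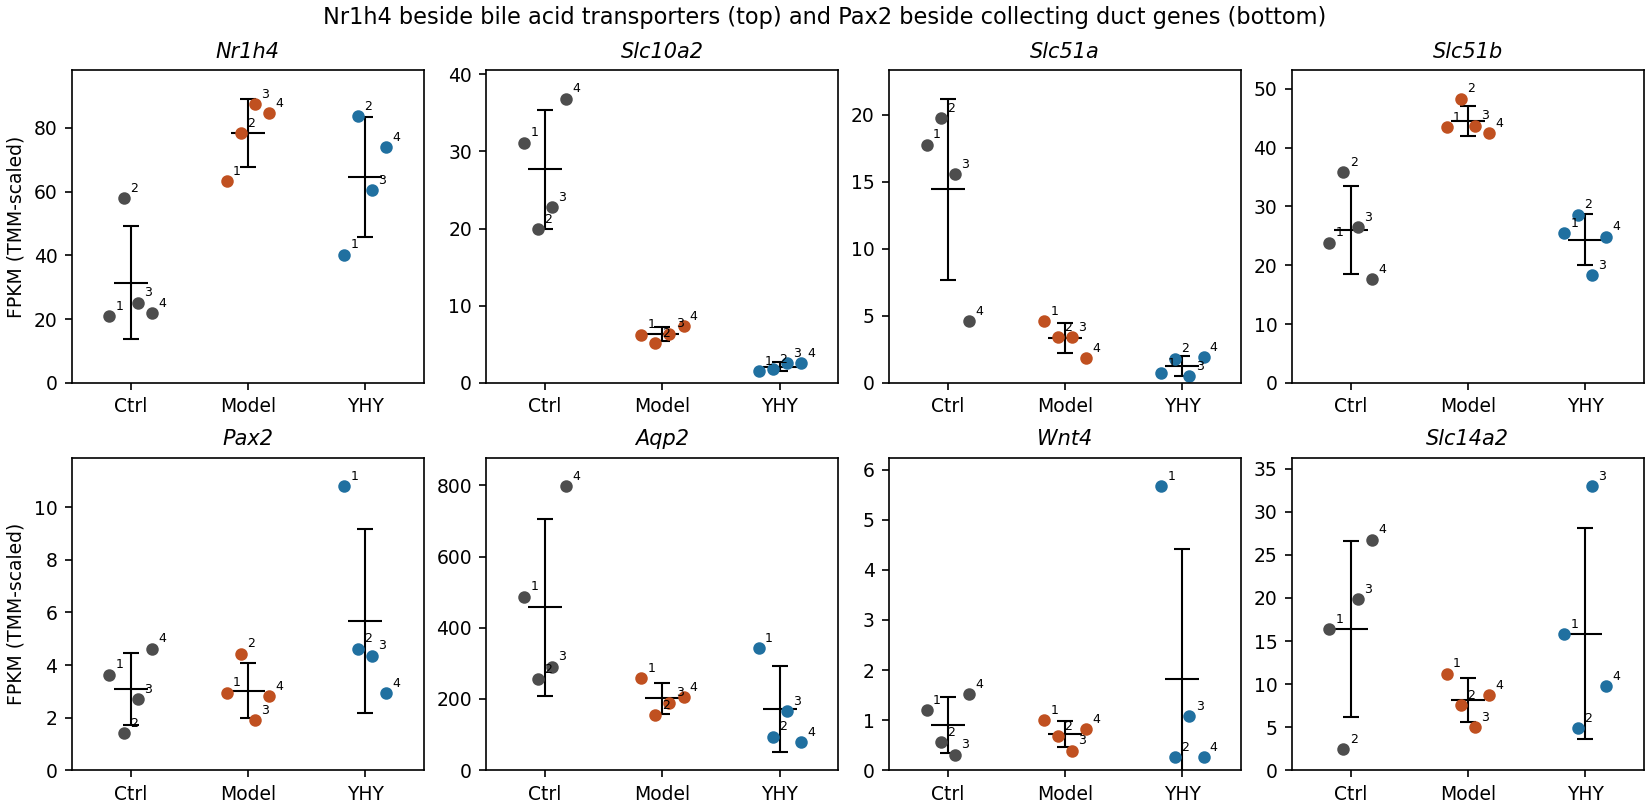
FPKM (vertical axes from 0, TMM-scaled) in every mouse of Ctrl, Model and YHY, for Nr1h4 with the bile acid transporters Slc10a2, Slc51a and Slc51b in the upper panels and for Pax2 with Aqp2, Wnt4 and Slc14a2 in the lower panels; points are mice with their numbers, the long line is the mean and the bars are ± 1 SD of 4 mice, of which that of Wnt4 in YHY runs below 0 and is not drawn there. Slc10a2 lies at 19.9 to 36.8 in Ctrl, 5.15 to 7.38 in Model and 1.52 to 2.60 in YHY, Nr1h4 is higher in every Model mouse than in any Ctrl mouse while YHY overlaps both groups, and YHY 1 is the highest YHY mouse for Pax2, Aqp2 and Wnt4.

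Tfcp2l1 (ENSMUSG00000026380, chromosome 1, 118555675 to 118612898, plus strand) had 14.3, 15.0, 11.5 and 16.8 FPKM in Ctrl, 16.7, 13.0, 14.7 and 13.1 in Model and 15.6, 17.7, 19.1 and 22.5 in YHY. Its groups overlapped, with YHY 2, YHY 3 and YHY 4 above all Ctrl and Model mice. No comparison was called: the log2 fold change was 0.38 in YHY against Model (SE 0.16, n = 4 mice per group, adjusted P = 0.132), 0.38 in YHY against Ctrl (SE 0.16, adjusted P = 0.0630) and 0.00 in Model against Ctrl (SE 0.16, adjusted P = 0.985). The difference from Ctrl was called without YHY 1 (0.45, adjusted P = 0.0387), with upper-quartile scaling (0.50, 0.0141), with at least 10 counts in every mouse (0.0272) and by DESeq2 (0.0481), and it was −0.06 with library size alone and 0.22 without Ctrl 3. Relative to all genes it was 0.28 with TMM and 0.27 with library size alone. The genes most like Tfcp2l1 were Rsl1d1, a nucleolar protein (r = 0.895), and Acsl1, which activates long-chain fatty acids (r = 0.888).

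Collecting duct genes tied to TFCP2L1 were called in both directions. Of 22 tested, 5 rose and 1 fell in Model against Ctrl (median log2 fold change −0.08), 5 rose and 2 fell in YHY against Model (median 0.06) and 8 rose and 2 fell in YHY against Ctrl (median −0.20), so that the medians had the opposite sign to the balance of calls in 2 comparisons. Beside the 38.0, 13.3 and 50.3% of all genes, 6, 7 and 10 of 22 were called. The balance turned with library size alone, with 3 higher and 6 lower in Model against Ctrl and 2 higher and 6 lower in YHY against Ctrl. The 5 that rose in YHY against Model were 3 without Model 1, Model 2, Model 3 or YHY 2, and 3 with library size alone. The 1 that fell in Model against Ctrl became 4 at an unadjusted P under 0.05, 4 without Model 1, 2 by DESeq2 and without YHY 1 or YHY 4, and 0 with upper-quartile scaling and without Ctrl 4, Model 2 or Model 4. The 2 that fell in YHY against Model became 1 without Model 1, Model 3, YHY 1, YHY 2 or YHY 3, and the 2 that fell in YHY against Ctrl became 5 without YHY 3 and 4 without YHY 4. Slc4a9, the bicarbonate transporter of beta intercalated cells, was at 3.91, 6.88, 2.80 and 5.83 FPKM in Ctrl, 9.44, 11.4, 11.7 and 8.83 in Model and 20.0, 35.3, 18.8 and 21.2 in YHY. These 3 groups did not overlap, and Slc4a9 rose by 1.09 in Model against Ctrl (adjusted P = 0.00357) and by 1.21 in YHY against Model (adjusted P = 0.00758). Insrr, an alkali-sensing receptor of the same cells, rose by 0.97 in Model against Ctrl (adjusted P = 0.00231), and Atp6v1c2, a proton pump subunit, by 1.06 (adjusted P = 0.000745). Jag1, a Notch ligand, rose by 0.73 in YHY against Model (adjusted P = 0.00991, and 0.0725 with library size alone). Atp6v1g3, a proton pump subunit of intercalated cells, was at 31.1, 46.5, 29.6 and 35.01 FPKM in Ctrl, 56.3, 32.5, 49.7 and 27.0 in Model and 16.1, 18.8, 24.4 and 16.4 in YHY, so that it was lowest in all YHY mice, and it fell by 1.13 in YHY against Model (adjusted P = 0.00568). The intercalated cell markers, all but Hmx2, are also among the genes tied to TFCP2L1, so their counts are no separate evidence. Of the 12 intercalated cell markers 2 rose and 1 fell in Model against Ctrl, 3 rose and 1 fell in YHY against Model, and 3 rose and 1 fell in YHY against Ctrl, which became 2 and 3 with library size alone. The 3 that rose in YHY against Model became 1 without Model 1, Model 2, Model 3 or YHY 2. The 1 that fell in YHY against Ctrl became 3 without YHY 3 and 2 without YHY 4, and the 1 that fell in Model against Ctrl became 0 with upper-quartile scaling and without Ctrl 1, Ctrl 4, Model 2 or Model 4, and 2 with library size alone. Their summed FPKM was 99.9, 120.4, 89.5 and 126.7 in Ctrl, 140.0, 97.3, 127.0 and 81.1 in Model and 87.7, 109.8, 116.9 and 99.7 in YHY. These sums overlapped between the groups, and Atp6v1g3 was the most abundant gene over the 12 mice.

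Other factors of tubule and collecting duct epithelium were followed as well. Of 46 such factors 45 were tested, and 9 rose and 6 fell in Model against Ctrl (median log2 fold change 0.02), 1 rose and 4 fell in YHY against Model (median 0.13) and 15 rose and 10 fell in YHY against Ctrl (median 0.18), beside 38.0, 13.3 and 50.3% of all genes, shares from which these counts are not set apart. The balance turned with library size alone, with 4 higher and 16 lower in Model against Ctrl and 5 higher and 14 lower in YHY against Ctrl. The 1 that rose in YHY against Model became 4 without YHY 2 or YHY 4, 3 without Ctrl 2, 2 without Ctrl 4 or Model 2 and 0 without Model 1, and it became 2 with upper-quartile scaling, 4 by DESeq2 and 8 at an unadjusted P under 0.05. The 4 that fell in YHY against Model were 2 without Model 2 or Model 3, and the 15 were 7, 9 and 9 without Ctrl 1, Ctrl 2 and YHY 1. Zbtb16, a zinc finger factor, was at 0.0236 to 0.194 FPKM in Ctrl, 0.743 to 1.21 in Model and 1.62 to 2.40 in YHY, and it rose by 2.98 in Model against Ctrl (adjusted P = 0.000105). Tbx2 rose by 0.83 there (adjusted P = 0.000386, and 0.0591 with library size alone). Emx1, a homeobox factor, fell by 0.83 in YHY against Model (adjusted P = 0.00922), and Sim1 rose by 0.89 (adjusted P = 0.0170, and 0.0512 without Model 1).

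Partners and cofactors with which the nuclear receptors act were counted too. Of 27 tested, 5 rose and 5 fell in Model against Ctrl (median log2 fold change −0.05), 4 rose and 2 fell in YHY against Model (median 0.23) and 9 rose and 5 fell in YHY against Ctrl (median 0.17). Beside the 38.0% and 50.3% of all genes called in the comparisons with Ctrl, 10 and 14 of 27 are not set apart. Scaled by library size alone they were 1 and 11 in Model against Ctrl and 1 and 5 in YHY against Ctrl. Upper-quartile scaling gave 7 and 3 in Model against Ctrl and 11 and 5 in YHY against Ctrl. The 5 that rose in Model against Ctrl were 2 without Ctrl 1 or Ctrl 3 and 3 without Model 2, the 5 that fell were 3 without Model 2, the 4 that rose in YHY against Model were 2 without Model 1 or Model 3 and with library size alone, the 2 that fell there were 1 without Model 3, YHY 1 or YHY 3 and 4 by DESeq2, and the 9 were 5 without Ctrl 1 or Ctrl 3. Ppargc1b, a coactivator of the estrogen-related receptors, was at 0.508 to 0.727 FPKM in Ctrl and 1.44 to 2.36 in Model, and it rose by 1.72 (adjusted P = 0.000128). Nr2f2 and Tbl1x fell by 0.82 and 0.75 in Model against Ctrl (adjusted P = 0.00140 and 0.00383). Nr2f6, an orphan receptor, was at 20.0, 13.4, 13.5 and 15.4 FPKM in Ctrl, 9.84, 10.7, 13.0 and 14.9 in Model and 3.47, 4.43, 4.60 and 5.07 in YHY. All YHY mice were far below the others, and Nr2f6 fell by 1.46 in YHY against Model (SE 0.18, adjusted P = 0.000326). Ncor1, a corepressor, rose by 0.62 in YHY against Model after falling by 0.49 in Model against Ctrl (adjusted P = 0.00670 and 0.00696). Sirt1, a deacetylase, rose by 0.95 in YHY against Model (adjusted P = 0.0146), and by 0.59 without YHY 4, the highest mouse at 8.02 FPKM.

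Of 21 family relatives of the members, 14 passed the filter on low counts and were tested. Of the 14, 4 rose and 2 fell in Model against Ctrl (median log2 fold change 0.15), 1 rose and 0 fell in YHY against Model (median 0.17) and 6 rose and 2 fell in YHY against Ctrl (median 0.50). Scaled by library size alone they were 1 and 2 in Model against Ctrl and 2 and 3 in YHY against Ctrl. By an unadjusted P under 0.05, 2 were lower in YHY against Model, and DESeq2 called 1 lower. The bile acid and sterol receptors related to Nr1h4 differed in direction. Nr1i2, the pregnane X receptor, rose by 1.83 in Model against Ctrl (adjusted P = 0.00122), Nr1h2, which encodes LXR beta, rose by 0.72 (adjusted P = 0.00273, and 0.28 with 0.187 with library size alone), and Nr1h3, which encodes LXR alpha, fell by 0.69 (adjusted P = 0.00268). Ubp1, a relative of Tfcp2l1, was at 5.63, 4.85, 5.29 and 5.89 FPKM in Ctrl, 4.80, 5.72, 5.63 and 7.04 in Model and 9.83, 13.9, 7.75 and 11.5 in YHY. All YHY mice were above all others, and Ubp1 rose by 0.89 in YHY against Model (SE 0.17, adjusted P = 0.00469). Pax9, a relative of Pax2 and Pax8, was at most 0.299 FPKM in any mouse, and its log2 fold change of −2.32 in YHY against Model was not called (adjusted P = 0.0585, and 0.0137 by DESeq2).

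**Figure D4:**
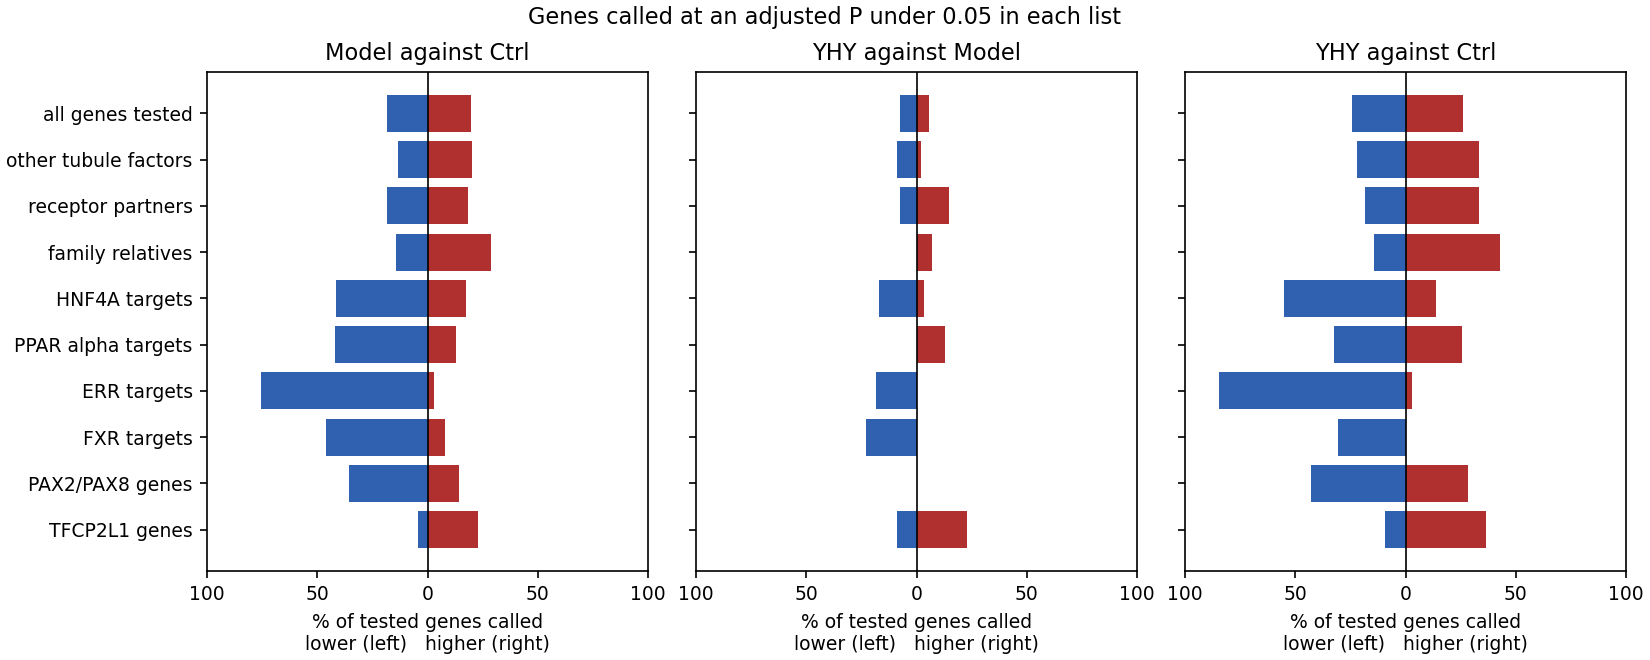
Percent of the tested genes of each list (horizontal axis) that were called higher (to the right, red) or lower (to the left, blue) at an adjusted P under 0.05 with TMM scaling, in Model against Ctrl, YHY against Model and YHY against Ctrl, with all 17431 genes tested at the top. Targets of the estrogen-related receptors (ERR) are called lower in 25 of 33 genes in Model against Ctrl and 28 of 33 in YHY against Ctrl. The other tubule factors, the receptor partners, the family relatives and the TFCP2L1 genes differ by scaling. With library size alone each of these lists holds more genes lower than higher in both comparisons with Ctrl.

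The remaining cell types were followed through their markers, as summed FPKM in Ctrl, Model and YHY. The gene given as most abundant in each list is that over the 12 mice. Of 11 loop of Henle markers 1 rose and 6 fell in Model against Ctrl, 1 rose and 0 fell in YHY against Model and 0 rose and 4 fell in YHY against Ctrl, with sums of 578 to 1035, 517 to 746 and 385 to 1077 and Ppp1r1a most abundant. Of 10 distal tubule markers 5 rose and 0 fell, 0 rose and 2 fell, and 5 rose and 2 fell in the same comparisons, with sums of 143 to 229, 233 to 312 and 130.3 to 238 and Pvalb most abundant. Pvalb, the calcium buffer parvalbumin, fell by 1.59 in YHY against Model (adjusted P = 0.0102). Of 10 podocyte markers 5 rose and 0 fell, 0 and 0 were called, and 5 rose and 1 fell, with sums of 29.6 to 43.1, 38.6 to 85.9 and 29.5 to 55.4 and Cdkn1c most abundant. Of 10 endothelial markers 4 rose and 0 fell, 0 rose and 1 fell, and 4 rose and 0 fell, with sums of 106 to 138, 147 to 181 and 129 to 183 and Plvap most abundant. Of 11 mesangial, pericyte and fibroblast markers 4 rose and 0 fell, 0 and 0 were called, and 4 rose and 1 fell, with sums of 107 to 142, 84.0 to 123 and 76.7 to 119 and Ren1 most abundant. Of 12 immune markers 11 were tested, and 1 rose and 4 fell, 0 and 0 were called, and 3 rose and 3 fell, with sums of 149 to 240, 157 to 214 and 149.9 to 371 and Lyz2 most abundant. Of 15 injured tubule markers 1 rose and 4 fell, 1 rose and 1 fell, and 1 rose and 4 fell, with sums of 488 to 673, 446 to 874 and 474 to 789 and Spp1 most abundant. Of 8 nephron progenitor markers 5 were tested, and 0 rose and 1 fell, 0 rose and 1 fell, and 2 rose and 1 fell, with sums of 25.5 to 30.7, 12.7 to 20.7 and 10.9 to 22.6 and Crym most abundant over the 12 mice. These markers were listed as off in the adult kidney, so their sums do not measure progenitor cells. In Ctrl, Crym had a mean of 21.5 FPKM within a mean sum of 27.9. With library size alone the balance turned for the mesangial, pericyte and fibroblast markers in Model against Ctrl (1 higher and 2 lower). Under the same scaling it turned for the progenitor markers in YHY against Ctrl (0 higher and 1 lower). The immune markers there, even at 3 and 3 with TMM, became 3 higher and 5 lower with library size alone. In YHY against Model, where podocyte, mesangial and immune lists had no call by edgeR, they held 0 and 4, 2 and 1, and 3 and 0 genes higher and lower at an unadjusted P under 0.05, and DESeq2 called 0 and 1, 0 and 0, and 0 and 0. Of the other counts of 0 above, that of loop markers in YHY against Ctrl became 1 at an unadjusted P and by DESeq2, those of endothelial markers higher in YHY against Model and lower in YHY against Ctrl became 1 at an unadjusted P and were 0 by DESeq2, and the rest were 0 by both. The 1 loop marker that rose in YHY against Model became 5 at an unadjusted P and 3 by DESeq2, and the 1 endothelial marker that fell there became 2 by both. Scaled by library size, the markers higher and lower in Model against Ctrl were 0 and 8 for the loop, 2 and 1 for podocytes, 1 and 0 for endothelium, 0 and 4 for immune cells and 0 and 5 for injured tubule. For YHY against Ctrl they were 2 and 2 for podocytes, 1 and 1 for endothelium and 2 and 1 for mesangial cells, pericytes and fibroblasts, and for YHY against Model the loop, endothelial, injured tubule and progenitor lists held 0 and 0. Upper-quartile scaling gave 1 and 2 for the loop in YHY against Ctrl and 2 and 4 for immune cells in Model against Ctrl.

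Many of these marker counts moved when 1 mouse was left out. Loop markers that fell in Model against Ctrl were 3 without Model 2 or Model 3, and those that fell in YHY against Ctrl were 2 without Ctrl 1, YHY 1, YHY 2 or YHY 4. Loop markers that rose in YHY against Model were 3 without YHY 4, 2 without YHY 2 and 0 without Ctrl 1, Ctrl 3, Model 2, Model 3, Model 4, YHY 1 or YHY 3, and 1 rose in YHY against Ctrl without YHY 2 or YHY 4. Distal tubule markers that fell in YHY against Model were 4 without YHY 2. Podocyte markers that rose were 3 in Model against Ctrl without Ctrl 1, Model 2 or Model 3 and 3 in YHY against Ctrl without Ctrl 1. Those that fell in YHY against Model were 3 without YHY 4, 2 without Model 4 and 1 without Ctrl 1 or YHY 2, while 1 fell in Model against Ctrl without Model 1 and 2 fell in YHY against Ctrl without YHY 4. Endothelial markers that fell in YHY against Model were 2 without Model 4 or YHY 4 and 0 without Model 3, and 1 fell in YHY against Ctrl without Model 1 or YHY 4. Mesangial, pericyte and fibroblast markers that rose in Model against Ctrl were 1 without Ctrl 1, Ctrl 2, Ctrl 4, Model 2 or Model 3 and 2 without Ctrl 3 or Model 1, and without YHY 4, 2 rose and 1 fell in YHY against Model. Immune markers that rose in Model against Ctrl were 2 without YHY 2 or YHY 4, and 2 rose in YHY against Model without YHY 4. Injured tubule markers that rose were 0 in Model against Ctrl without Ctrl 1 or Ctrl 4 and, in YHY against Model, 3 without YHY 4 and 0 without any 1 of the Model mice, YHY 1 or YHY 3. In YHY against Ctrl they were 2 without Ctrl 4 and 3 without YHY 4. Progenitor markers that fell in YHY against Model were 0 when any 1 mouse other than Ctrl 4, Model 4 or YHY 4 was left out, and the 2 that rose in YHY against Ctrl were 0 without Ctrl 1 or Ctrl 2 and 1 without Ctrl 3, Ctrl 4, YHY 3 or YHY 4. The part of these cell types in the levels of the 8 factors was not tested.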

How the data were processed

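Kidney RNA of 12 mice was analysed from raw counts per gene that the authors deposited together with the length of each gene. Per the submitters' processing notes, reads were trimmed with Trimmomatic 0.39, checked with FastQC 0.11.9, aligned with HISAT2 2.2.1, handled with SAMtools 1.12 and counted with featureCounts 2.0.1, with DESeq2 1.34.0 and R 4.1.2 used afterwards and GRCm39 named as the build. The use of strand in counting is not given in the sources used here. The tables of the authors' own comparisons and pathways, with 12 columns of values per mouse, were not used. The 480 features without an Ensembl ID, 0.172% of all counts, were kept.

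Genes were filtered with filterByExpr and scaled by TMM, and 1 model of 3 groups was fitted with the quasi-likelihood test of edgeR 4.0.16 (R 4.3.3, limma 3.58.1), two-sided, with Benjamini-Hochberg adjustment over the 17431 genes tested. FPKM were made here from counts and from the gene lengths that came with them. Ratios within a mouse were tested by exact permutation (Python 3.11.15, numpy 2.4.6, pandas 2.3.3, scipy 1.17.1, matplotlib 3.10.9) and adjusted over 9 tests. Only the edgeR fit was tested on simulated counts, in Model against Ctrl, with few genes changed and no change in the mitochondrial share. The effect of scaling was not covered by it. As a check for a repeated library, the replicates of a group were compared in pairs. They differed by a chi-square per degree of freedom of 17.3 to 138.9, so none was a copy of another. Nothing else is read from these values, since separate mice differ by more than counting error. Wilson intervals cover counting error only.

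The members and the gene lists were chosen with earlier results of these data known. The 20 lists were other tubule factors, receptor partners, family relatives, targets of HNF4A, PPAR alpha, the estrogen-related receptors, FXR, PAX and TFCP2L1, and 11 sets of cell type markers. Some genes stand in more than 1 list, so that counts of different lists are not independent. Genes were named if they were members, if they had 1 of the 3 smallest P of a list without markers in Model against Ctrl or in YHY against Model, called or not, if they were among the 2 genes with the highest Pearson r of log2 CPM with a member, given a mean count of at least 50, or if they were the most abundant gene of a marker list over the 12 mice. Other genes, Nr1h4 set against Hnf4a and the comment on Slc14a2 beside the tissue named were chosen after values were seen. The alternatives tried were DESeq2 1.42.0, scaling by the upper quartile or by library size alone, a filter of 10 counts in each mouse or none, omission of mitochondrial genes, fits of only the 2 groups compared, of 9 mice and without each mouse in turn, a block by replicate number, a pseudocount of 5 for ratios and, added after seeing the data, 3 mice left out.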

Additional observations from a re-analysis of the deposited data

Results flagged for a closer look

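In 3 of the 69 groups of 4 mice examined, 1 mouse lay far from the others by Dixon's test at its 95% critical value, which takes the gap to the nearest mouse over the range of the group. Chance does this in about 1 in 20 groups. Nr1h4 in Ctrl 2, at 57.9 FPKM, had a gap of 0.885 of the range of Ctrl. The mitochondrial share of Ctrl 2, 22.7%, had a gap of 0.962, and that of YHY 2, 64.6%, a gap of 0.933. The part of the mitochondrial share in the level of Nr1h4 was not tested.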

How the results depend on the processing

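Of the 176 values of the members under the alternatives in each comparison, 153 kept their sign and call in Model against Ctrl, 167 in YHY against Model and 162 in YHY against Ctrl. Members called numbered 2, 3 and 6. In Model against Ctrl they were 1 to 3 when 1 mouse was left out and 3 with 9 mice. In YHY against Model they were 1 with library size alone, 1 in a fit of only the 2 groups and 6 by the limits on fold and unadjusted P, and in YHY against Ctrl they were 3 with library size alone and 8 with upper-quartile scaling, with at least 10 counts in every mouse and by DESeq2. All genes called in YHY against Model numbered 2311, and 3123 of 30071 tested by DESeq2, 1177 with library size alone, 1385 in a fit of the 2 groups, 1497 with 3 mice left out, and 1146 to 2723 with 1 mouse left out. The sign of small differences in Model against Ctrl turned: with library size alone Hnf4a was at −0.37 and Esrra at −0.37, with upper-quartile scaling Pax2 was at 0.0688 and Tfcp2l1 at 0.10, and with at least 10 counts in every mouse Pax2 was at 0.00701 and Tfcp2l1 at 0.0387. With 1 mouse left out Hnf4a ran from −0.0301 to 0.12, Esrra from −0.0420 to 0.0948, Pax2 from −0.28 to 0.17 and Tfcp2l1 from −0.15 to 0.0385. In YHY against Ctrl, Tfcp2l1 was at −0.0586 with library size alone, and the log2 ratio of Pax2 to Pax8 ran from −0.35 to 0.20 with 1 mouse left out. In YHY against Model, the log2 ratio of Esrrg to Esrra was 0.11 with 9 mice and ran from −0.31 to 0.0307, and Wnt4 ran from −0.43 to 1.69. The cause was not tested. Mice that share a number were not found to be paired, since their deviations from the group means correlated at −0.173 to 0.125 and 3 of 12 mice correlated best with their own number; with the replicate block 2, 3 and 6 members were called, 0 of 24 member calls changed, Tfcp2l1 was at 0.00628 in Model against Ctrl, and of the named genes Plin2 (adjusted P = 0.0813) and Slc51a (0.0854) were not called in YHY against Model. Of 1141 values of named genes, 1101 kept sign and call. Ppara, with 83 to 186 counts in a mouse, was the member measured at the least depth.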
